A study of Acipenser schrenckii with 6 samples.

Results

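The Wnt, Notch and bone morphogenetic protein (BMP) pathways and the CDX factors were followed in the gut of Amur sturgeon (Acipenser schrenckii) given commercial feed or fresh Limnodrilus worms. Members were the loci whose protein name in the deposited annotation is that of a Wnt, frizzled or BMP protein, a Notch receptor, a delta-like or jagged ligand, a HES factor, an axin, beta-catenin, an R-spondin, a leucine-rich repeat-containing G-protein coupled receptor (LGR), a transcription factor 7-like protein (TCF7-like) or a CDX homeobox protein. Read letter by letter, this rule found 325 rows, of which 126 hold the letters of axin only inside another word, such as syntaxin or ataxin. Setting these aside left 199 members of 82023 rows. The rule reads names alone, but it was set with earlier results of these data known. The 126 rows set aside included 62 tested, of which 7 were called higher and 1 lower with Limnodrilus.

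The fish were artificially bred, kept in net cages and intended for release to a river. Gut tissue was taken after 30 days on commercial feed in 3 libraries and after 30 days on fresh Limnodrilus, a freshwater worm reared in the water source of the fish, in 3 libraries. Both groups carry the same species label as their genotype, no other treatment is given, and age is not stated in the labels. Nothing in the labels tells if each library is 1 fish or a pool, so a p-value here reflects library-to-library spread alone, which may be technical. Values are FPKM, fragments scaled by gene length and by the library total, so levels can be compared between genes.

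In the vertebrate intestine, the lining is renewed from dividing cells at its base. Secreted Wnt proteins bind frizzled receptors and protect beta-catenin from the axin-containing destruction complex, so that it can act with TCF7-like factors. R-spondins acting on LGR receptors strengthen that signal. Delta-like and jagged ligands on one cell activate Notch receptors on its neighbour, which turns on HES repressors and biases cells away from secretory fates. BMP ligands oppose stem cell division, and CDX homeobox factors set and maintain intestinal identity. Most of this knowledge comes from mouse and zebrafish.

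The libraries were uneven, and this touches many of the values below. Depth recovered from the FPKM steps was 9947758 to 10489854 reads for commercial feed and 13873626 to 19666345 reads for Limnodrilus, so depth and diet differed together. Summed over 20 smooth muscle marker loci, the level was 8259, 5104 and 658 FPKM in commercial feed libraries 1, 2 and 3, against 3368, 2372 and 2448 FPKM with Limnodrilus. Summed over 18 brush-border marker loci, it was 69.7, 337 and 3221 FPKM with commercial feed and 1916, 9311 and 3645 FPKM with Limnodrilus. Within that sum, intestinal fatty acid-binding protein LOC117409347 alone was at 31.5, 93.5 and 749 FPKM against 1295, 7431 and 2962 FPKM. This locus was itself called higher with Limnodrilus. As a mean of log2(FPKM + 1) over the 17 tested loci, the list was at 1.68, 2.86 and 5.20 against 4.94, 6.36 and 5.01. By that measure commercial feed library 3 lay within the Limnodrilus range. Summed over 22 fibroblast and mesenchyme marker loci, the level was 1449, 1152 and 226 FPKM with commercial feed and 544, 349 and 562 FPKM with Limnodrilus. The leukocyte sum was 13.8, 16.6 and 130 FPKM against 35.6, 31.9 and 79.7 FPKM. The exocrine pancreas sum was 9.39, 71.2 and 171 FPKM against 188, 19.8 and 381 FPKM. The labelled tissue was represented by epithelial and muscle transcripts in every library, in very different proportion. Commercial feed library 1 was at one extreme of both the muscle and the brush-border sum. No brush-border marker was at 0 in all libraries, and 1 smooth muscle marker was (a smooth muscle myosin light chain kinase-like locus). Of the brush-border list 3 of 17 tested loci were called higher with Limnodrilus, and of the muscle list 0 of 15 were called. In tissue RNA, fewer cells of a type and less RNA per cell cannot be told apart.

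Of the 199 members, 34 were at 0 in all 6 libraries and 79 reached the mean of 1 FPKM that admitted a locus to the test. The other 120 were not tested. Only 13 members exceeded a mean of 10 FPKM, and 66 lay between 1 and 10 FPKM. Diets were compared with limma-trend on log2(FPKM + 1), with adjustment over all 23644 tested features and a threshold of 0.05. Of the tested members 1 was called higher with Limnodrilus, 2 were called lower and 76 did not pass, which is 3.80% called. Over all tested features 14.0% were called higher, 3.64% lower and 17.7% in either direction, and 15.3% of those with a mean of 1 to 10 FPKM were called. The median log2 fold change, Limnodrilus minus commercial feed, was 0.12 over the tested members and 0.24 over all tested features. Members ran from -1.69 to 2.18 on that scale. With commercial feed library 3 left out 7 members (8.86%) were called, 5 higher and 2 lower, against 26.6% of all features. With Limnodrilus library 1, 2 or 3 left out 1 member (1.27%) was called, against 3.13%, 2.99% and 2.70% of all features. Median-of-ratios and quantile scaling each called 8 members (10.1%), 1 higher and 7 lower, against 15.6% and 16.7% of all features. These scalings lowered the share of calls that were higher over all features from 79.4% to 57.9% and 58.3%, and the median of all features from 0.24 to -0.02 and -0.03.

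The range of the 3 libraries of each diet gives a like picture for higher levels. For lower levels the share of members was near that of all features. All 3 Limnodrilus libraries lay above all 3 commercial feed libraries for 6 members (7.59% of those tested, against 28.4% of all features). They lay below for 11 members (13.9%, against 11.5% of all features). Those 6 were 1 frizzled-5 locus, both delta-like protein C loci and 3 CDX loci. Those 11 were 3 Notch 2 loci, 2 HES-5 loci, both axin-2 loci, 1 locus each for Wnt-2b-A, TCF7-like 1-A and jagged-1b, and a BMP receptor type-1B locus.

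**Figure D1:**
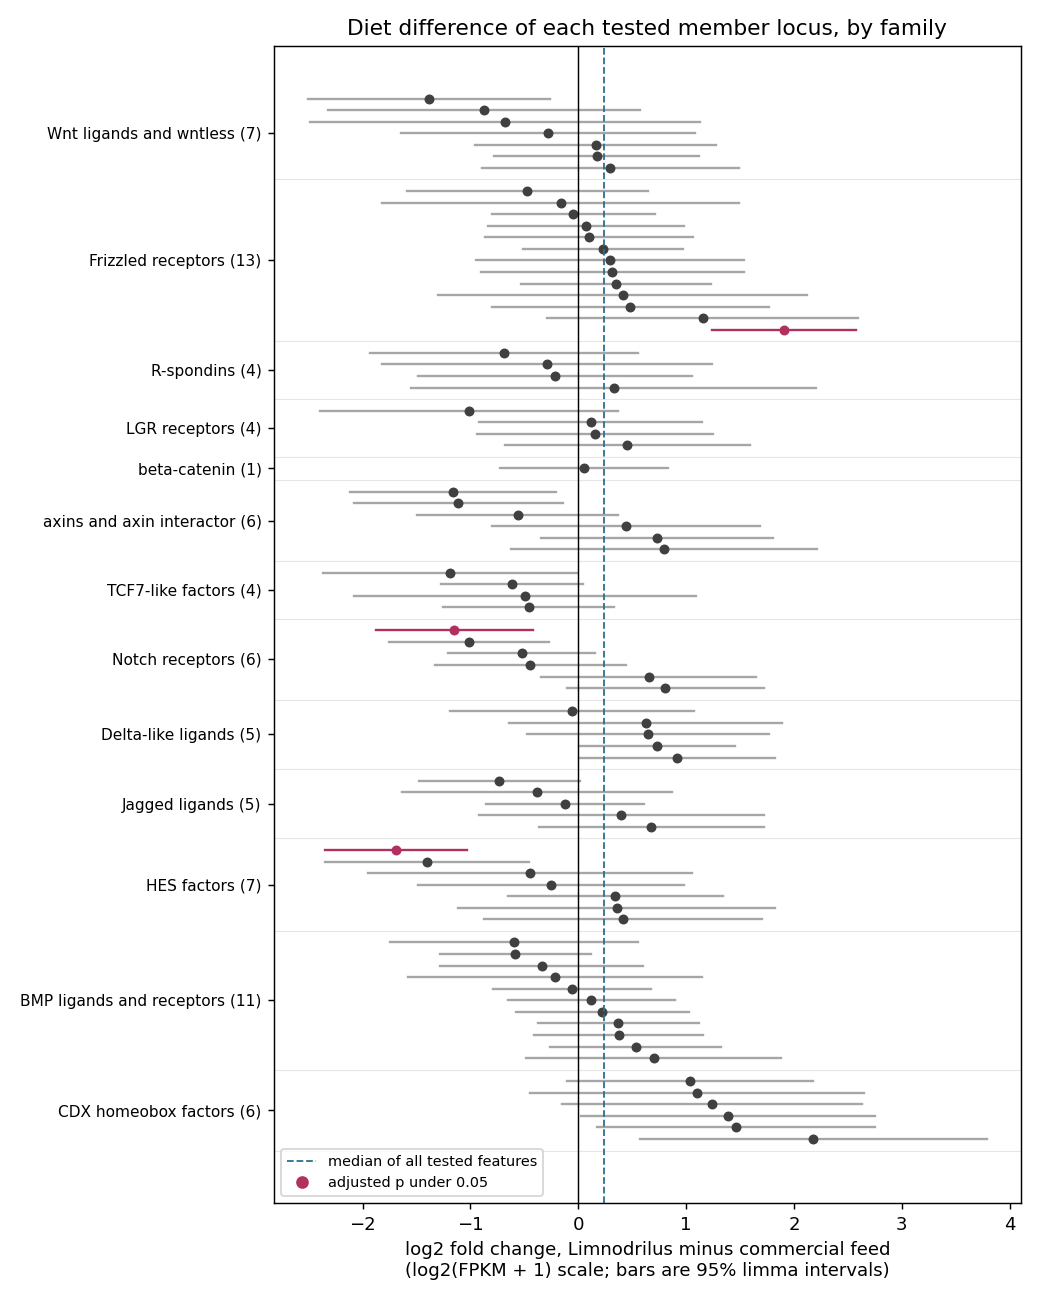
Log2 fold change of each of the 79 tested members (x axis, log2(FPKM + 1) scale, Limnodrilus minus commercial feed), grouped by family (y axis, number of tested loci in brackets), with 95% limma intervals. The 3 coloured points passed the threshold, the dashed line is the median of all tested features at 0.24, and all 6 CDX points lie to the right of it.

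The change with the smallest p was in a Wnt receptor. Frizzled-5-like locus LOC117403465 (sequence NC_081198.1, 51647876 to 51652461 in the deposited coordinates) was at 0, 0.176 and 0.311 FPKM with commercial feed and at 3.24, 3.54 and 3.24 FPKM with Limnodrilus. These values rest on 0, 7 and 13 reads against 179, 278 and 220 reads. Every Limnodrilus library was thus far above every commercial feed library, and the Limnodrilus libraries were nearly equal. The mean rose from 0.162 ± 0.156 to 3.34 ± 0.178 FPKM (SD, n = 3 per diet), a log2 fold change of 1.91 (SE 0.289, limma-trend adjusted p = 0.0101). Without commercial feed library 3 the commercial feed mean was 0.0882 FPKM, and the call remained without each single library.

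Frizzled-5 is a receptor for canonical Wnt signals that in mouse intestine is prominent in crypt and Paneth cells. Its other locus, LOC117427085, had the higher level and did not pass: 1.18, 7.30 and 11.4 FPKM against 15, 10.2 and 12.8 FPKM (log2 fold change 1.15, SE 0.622, adjusted p = 0.234). There commercial feed libraries 2 and 3 reached the Limnodrilus range and library 1 did not. Summed over both loci, frizzled-5 gave a log2 fold change of 1.45 with adjusted p = 0.152. Reads shared between such copies could have been split between them, so the value of a single locus is uncertain to that extent.

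None of the other 11 tested frizzled loci passed, and with 1 exception their mean levels were between 0.983 and 6.75 FPKM in either diet. The exception was frizzled-8-like LOC117399763, at 1.74, 11.2 and 20.4 FPKM with commercial feed and 9.21, 4.95 and 7.35 FPKM with Limnodrilus (log2 fold change -0.16, adjusted p = 0.894). Its commercial feed values spanned more than the difference between diets. Frizzled-7-A-like LOC117401055 was at 6.71, 9.89 and 1.77 FPKM against 9.35, 5.95 and 4.96 FPKM. Frizzled-2 LOC117434598 was at 3.72, 1.78 and 0.460 FPKM against 1.35, 0.368 and 1.23 FPKM. These were lowest in commercial feed library 3 within that diet, the library with the lowest smooth muscle sum. Of the 13 tested frizzled loci, 7 were lowest in that library and 6 in library 1, the library with the highest smooth muscle sum. Over the 13 tested frizzled loci, 10 had log2 fold changes above 0 and the median was 0.29, which turned to -0.02 under median-of-ratios and -0.01 under quantile scaling. The whole family of 19 loci summed to 42.4, 61.7 and 53.9 FPKM with commercial feed and 77.9, 42.7 and 69.7 FPKM with Limnodrilus, so the diets overlapped.

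Wnt ligands were scarce. Of 45 Wnt protein loci, 9 were at 0 in all libraries and 5 were tested, and the 45 together gave 24.6, 32.1 and 22.4 FPKM with commercial feed and 14.6, 7.19 and 22 FPKM with Limnodrilus. All 3 commercial feed sums were thus above all 3 Limnodrilus sums, by a margin as small as that between 22.4 and 22 FPKM. None of the 5 tested loci passed. Wnt-2b-A-like LOC117964431, a copy of Wnt2b, which in mammals is made by mesenchyme near the crypt, was at 5.59, 8.84 and 2.36 FPKM against 1.88, 0.466 and 1.89 FPKM. The groups did not overlap (log2 fold change -1.39, SE 0.482, limma-trend adjusted p = 0.0855). Without commercial feed library 3 this locus passed, with adjusted p = 0.0236. Its pair Wnt-2b-A LOC117428861 overlapped between diets, at 4.78, 3.03 and 0.320 FPKM against 2.17, 0.633 and 2.30 FPKM. Without commercial feed library 1 its mean in that diet was 1.68 FPKM in place of 2.71 FPKM.

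The highest Wnt protein locus was Wnt-5b-like LOC117419878, a ligand known mainly for signalling without beta-catenin. It was at 9.47, 16 and 2.48 FPKM against 5.23, 1.73 and 4.94 FPKM (log2 fold change -0.87, adjusted p = 0.361). Its commercial feed mean was 5.98 FPKM without library 2 in place of 9.33 FPKM. Wnt-11 LOC117972819, another ligand of that kind, had 10.1 FPKM in commercial feed library 3 and 0.316 to 1.92 FPKM in the other 5 libraries. Wnt-3a, a ligand of the canonical pathway, has loci that were both too low to test. Locus wnt3a had 35 reads in commercial feed library 2 and 0 reads in the other 5 libraries, and LOC117435784 had 2 and 3 reads in commercial feed libraries 2 and 3, 1 read in Limnodrilus library 2 and 0 reads elsewhere. The wntless homologs carry Wnt proteins to the cell surface. LOC117416650, the highest locus of the family, was at 15.1, 24.1 and 5.8 FPKM against 18.5, 11.8 and 19.4 FPKM, and LOC117402337 at 6.81, 7.15 and 2.70 FPKM against 5.98, 4.37 and 7.96 FPKM. Neither passed (adjusted p = 0.714 and 0.799), and both were lowest in commercial feed library 3.

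Of the R-spondins and their LGR receptors, 0 of 4 and 0 of 4 tested loci passed. The 8 R-spondin loci summed to 25.4, 11 and 10.4 FPKM with commercial feed and 14.4, 5.62 and 9.65 FPKM with Limnodrilus. The paralogs ran in opposite order. R-spondin-3 LOC117402498 was at 13.5, 4.14 and 1.5 FPKM with commercial feed and its copy LOC117410496 at 9.81, 0.0882 and 0.669 FPKM, both highest in library 1. R-spondin-1 LOC117413940 was at 0.128, 2.66 and 3.19 FPKM and its copy LOC131699709 at 0.437, 2.77 and 3.91 FPKM, both lowest in library 1. Library 1 is the library of highest muscle and lowest brush-border sum, and the part of tissue makeup in these values was not tested. With Limnodrilus the R-spondin-3 pair was at 1.57 to 6.23 FPKM and the R-spondin-1 pair at 0.247 to 2.65 FPKM.

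LGR5 marks intestinal stem cells in mammals, and LGR4 is its more widely expressed relative. LGR5-like LOC117414733 was at 1.54, 6.04 and 8.67 FPKM with commercial feed and 2.07, 0.521 and 3.49 FPKM with Limnodrilus. Commercial feed library 1 lay inside the Limnodrilus range, and the test did not pass (log2 fold change -1.02, SE 0.596, limma-trend adjusted p = 0.271). LGR5-like LOC117419431 was at 1.99, 3.41 and 5.0 FPKM against 4.75, 1.58 and 6.37 FPKM, with a log2 fold change of 0.16. The LGR5 copies thus had opposite signs, and neither passed. LGR4-like LOC117434997 was the highest LGR locus at 4.86, 9.19 and 19.6 FPKM against 14.7, 10.4 and 16.6 FPKM, and LGR4-like LOC117432064 was at 3.05, 10.1 and 6.66 FPKM against 8.01, 4.39 and 7.97 FPKM. LGR6-like loci LOC131702095 and LOC117417592 had means of at most 0.319 FPKM in either diet and were not tested. Within commercial feed all 4 tested LGR loci were lowest in library 1, as were 48.5% of all tested features.

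**Figure D2:**
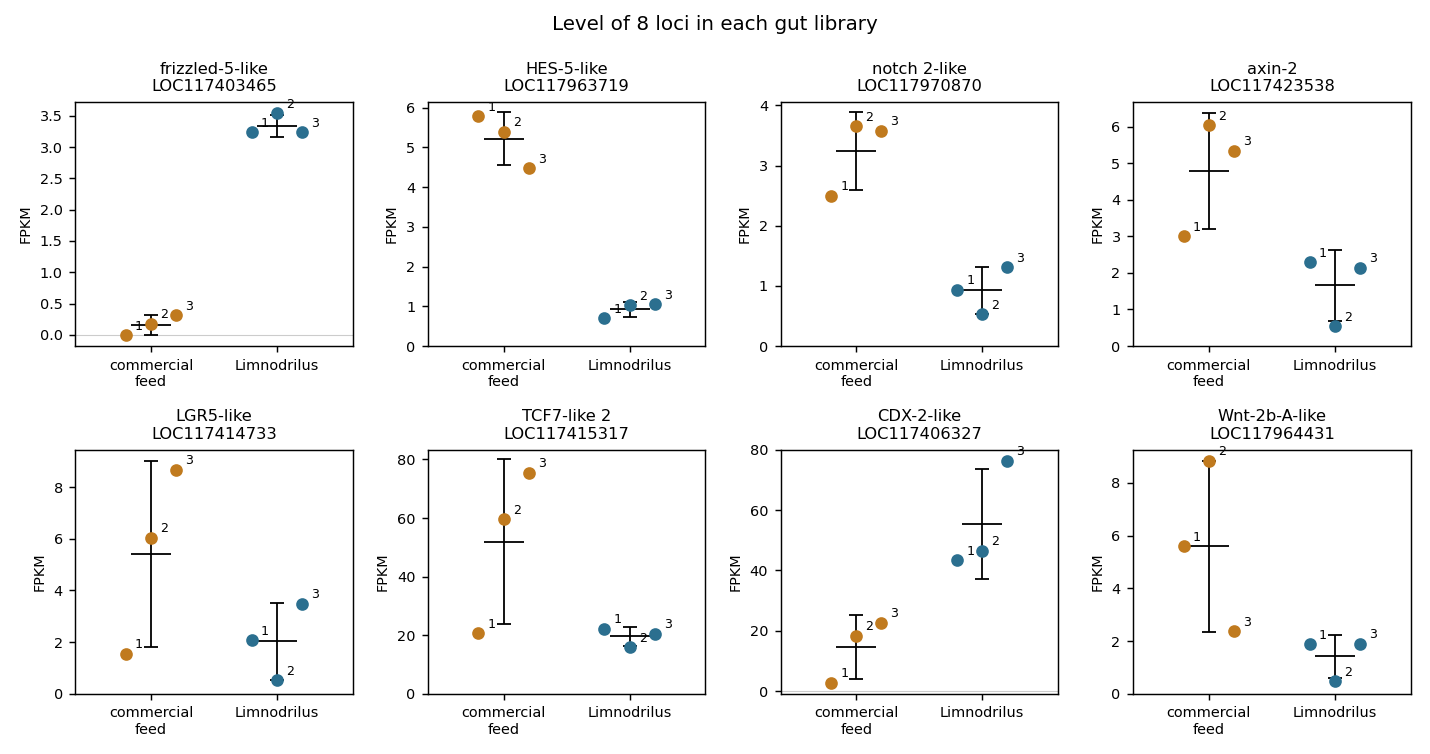
Level of 8 loci in FPKM (y axes, linear and drawn to each locus's own range) in each library, by diet (x axis); points are libraries with their replicate number, and bars are the mean and SD of 3 libraries. The upper row shows the 3 called loci and axin-2, all with separate diets, and the lower row shows LGR5-like and TCF7-like 2, where commercial feed library 1 falls within or beside the Limnodrilus values, and CDX-2-like and Wnt-2b-A-like, where the diets are apart.

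Beta-catenin is the effector of the canonical pathway. Locus LOC117400133 was at 57.2, 63.5 and 39.6 FPKM with commercial feed and 52.0, 52.0 and 59.6 FPKM with Limnodrilus. The means were 53.4 ± 12.4 and 54.5 ± 4.35 FPKM, and the log2 fold change of 0.05 had a 95% interval of -0.73 to 0.83 (limma-trend adjusted p = 0.929). The other 4 beta-catenin loci carried almost no reads, and LOC117435320, LOC131728034 and LOC131728652 were at 0 throughout.

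Axins are scaffolds of the destruction complex, and axin-2 is in addition a transcriptional target of Wnt signalling in vertebrates. Axin-2 LOC117423538 was at 3.0, 6.04 and 5.34 FPKM with commercial feed and 2.28, 0.541 and 2.15 FPKM with Limnodrilus (log2 fold change -1.16, SE 0.411, adjusted p = 0.0888). Its copy LOC117424758 was at 3.28, 5.28 and 6.38 FPKM against 2.39, 0.602 and 2.62 FPKM (log2 fold change -1.11, SE 0.416, adjusted p = 0.103). At both copies all Limnodrilus libraries were below all commercial feed libraries, and Limnodrilus library 2 was lowest, yet neither passed. Under median-of-ratios and quantile scaling both copies passed, with adjusted p of 0.0404 and 0.0417, and of 0.0346 and 0.0363. Axin-1 LOC117418194 was at 7.09, 15.8 and 27.4 FPKM against 26.3, 12.2 and 25.9 FPKM, and axin-1-like LOC117962440 at 4.75, 14.1 and 18.5 FPKM against 26.8, 9.04 and 30.6 FPKM. Log2 fold changes of the axin-1 loci were 0.44 and 0.80 and did not pass. The axin interactor, dorsalization-associated protein, had loci LOC117402680 at -0.56 and LOC117411397 at 0.73 on that scale, neither of which passed.

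TCF7-like factors bind DNA together with beta-catenin, and TCF7-like 2 is the main such factor of the mammalian intestinal epithelium. Locus LOC117415317 was at 20.7, 59.6 and 75.5 FPKM with commercial feed and 22.2, 15.9 and 20.6 FPKM with Limnodrilus. Commercial feed libraries 2 and 3 stood well above the other 4 libraries. The log2 fold change was -1.19 (SE 0.508) with adjusted p = 0.143. Without commercial feed library 1 the value was -1.74 and the locus passed with adjusted p = 0.0244. Under median-of-ratios scaling the locus passed as well (limma-trend adjusted p = 0.0479). The other TCF7-like loci were low. LOC117962397 (7-like 1-A) was at 4.19, 3.13 and 4.25 FPKM against 2.29, 2.35 and 1.86 FPKM, with no overlap and adjusted p = 0.172. LOC131696788 (7-like 1-A) was at 2.52, 1.23 and 1.07 FPKM against 0.641, 0.721 and 1.20 FPKM, and LOC117413262 (7-like 2) at 1.96, 0.264 and 6.14 FPKM against 0.513, 0.533 and 3.14 FPKM. The fifth locus, LOC131699477, fell short of the filter. All 4 tested loci had log2 fold changes below 0, with a median of -0.55, and 0 were called.

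In the Notch pathway, receptors of the same family ran in different directions. Notch 2-like LOC117970870 (NC_081224.1, 1610222 to 1664294) was at 2.5, 3.66 and 3.58 FPKM with commercial feed and 0.940, 0.529 and 1.31 FPKM with Limnodrilus. It fell from 3.25 ± 0.647 to 0.926 ± 0.390 FPKM (SD, n = 3 per diet), a log2 fold change of -1.15 (SE 0.312, limma-trend adjusted p = 0.0432). This call was lost with adjusted p of 0.0507 to 0.137 when any single library other than commercial feed library 1 was left out. It was lost as well with a pseudocount of 0.1, with no filter, with TPM scaling and with the replicate block (adjusted p = 0.0510, 0.0793, 0.0598 and 0.0802).

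The other 3 Notch 2 loci did not pass. LOC117403728, the highest, was at 9.59, 9.30 and 9.92 FPKM against 4.62, 2.88 and 5.65 FPKM (log2 fold change -1.01, SE 0.319, adjusted p = 0.0650). Under median-of-ratios and quantile scaling this locus passed (limma-trend adjusted p = 0.0290 and 0.0308). LOC117973198 was at 7.07, 8.56 and 8.17 FPKM against 5.62, 4.15 and 5.95 FPKM, again without overlap (adjusted p = 0.249). LOC117401950 was at 1.47, 3.51 and 2.42 FPKM against 1.55, 0.745 and 2.38 FPKM, with overlap. Summed over the 4 loci, Notch 2 was at 20.6, 25.0 and 24.1 FPKM against 12.7, 8.30 and 15.3 FPKM (log2 fold change -0.92, SE 0.325, adjusted p = 0.0955). The tested Notch 1 loci had the opposite sign. Locus LOC117422323 was at 6.20, 3.98 and 6.42 FPKM against 12.8, 4.64 and 12.3 FPKM, and LOC131702938 at 2.63, 2.24 and 3.40 FPKM against 7.57, 2.85 and 7.39 FPKM. For both Notch 1 loci Limnodrilus libraries 1 and 3 were above all commercial feed values while library 2 lay among them, and neither passed (adjusted p = 0.323 and 0.192). The other Notch 1 loci, LOC117434173 and LOC117964880, were below the filter and lower in every Limnodrilus library, with means of 0.355 against 0.108 FPKM and 0.751 against 0.144 FPKM. Summed over the 4 loci, Notch 1 gave a log2 fold change of 0.61 (SE 0.418, adjusted p = 0.350).

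Notch ligands showed no call. Delta-like protein C, a ligand known from zebrafish, was at 0.476, 0.525 and 0.966 FPKM against 1.84, 1.26 and 2.14 FPKM at dlc. At LOC117415138 it was at 0.665, 2.07 and 2.58 FPKM against 4.04, 5.36 and 2.84 FPKM. Neither locus overlapped between diets, and adjusted p was 0.141 and 0.143. Delta-like protein 4, best known from endothelium and from mouse crypts, was at 2.42, 1.10 and 4.85 FPKM against 4.36, 2.55 and 7.42 FPKM at LOC117397504, with overlap. Of 5 tested delta-like loci 4 had log2 fold changes above 0 and the median was 0.64.

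Jagged ligands were similar in level and split in sign. Jagged-2-like LOC131698692 was at 6.12, 10.9 and 8.82 FPKM against 9.26, 2.12 and 10.7 FPKM, and LOC117422415 at 3.57, 5.99 and 7.30 FPKM against 10.6, 2.51 and 13.9 FPKM. Limnodrilus library 2 was the lowest of the 6 libraries at both. Jagged-1b-like LOC117403035 was at 4.81, 4.48 and 5.90 FPKM against 3.07, 1.65 and 3.44 FPKM, without overlap (log2 fold change -0.73, adjusted p = 0.152). Under quantile scaling this locus passed (limma-trend adjusted p = 0.0477).

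HES factors, the repressors that Notch signalling turns on, formed the second largest family with 38 loci, 20 of them at 0 in every library. HES-5 accounts for 23 loci, which lie in 2 tandem groups: 9 loci within 44.4 kb of NC_081208.1 (936739 to 981158) and 14 loci within 77.5 kb of NC_081215.1 (551093 to 628613). Of these 14 were at 0 in every library and 3 were tested, 2 in the first group and 1 in the second. HES-5-like LOC117963719 in the second group (619772 to 621230) was at 5.78, 5.40 and 4.48 FPKM with commercial feed and 0.699, 1.02 and 1.05 FPKM with Limnodrilus. It fell from 5.22 ± 0.668 to 0.925 ± 0.196 FPKM, a log2 fold change of -1.69 (SE 0.282, limma-trend adjusted p = 0.0123). The call was lost when Limnodrilus library 1, 2 or 3 was left out (adjusted p = 0.0650, 0.0527 and 0.0580), while the fold change stayed between -1.60 and -1.74.

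HES-5-like LOC117425496 in the first group was at 11.8, 4.37 and 6.93 FPKM against 1.57, 1.75 and 3.21 FPKM, without overlap and just short of passing (log2 fold change -1.4, SE 0.407, adjusted p = 0.0519). Under median-of-ratios and quantile scaling this locus passed (limma-trend adjusted p = 0.0450 and 0.0394). The third tested locus, LOC117425498, was low in both diets and ran the other way, at 0.907, 0.471 and 0.893 FPKM against 1.59, 2.38 and 0.236 FPKM. Summed over the 23 loci, HES-5 was at 19.2, 10.9 and 12.3 FPKM with commercial feed and 4.45, 5.58 and 4.95 FPKM with Limnodrilus. That sum fell by 1.3 on the log2 scale (SE 0.322, adjusted p = 0.0360 over 15406 protein names), the only member protein that passed when loci of the same name were summed.

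HES-1, the effector that holds crypt cells in the absorptive lineage in mouse, did not follow HES-5. LOC117416949 was at 9.97, 24.6 and 29.6 FPKM against 35.3, 13.2 and 38.6 FPKM, and LOC131697990 at 11.2, 7.12 and 22.8 FPKM against 20.1, 6.24 and 31.2 FPKM. Both overlapped between diets, and both were lowest in library 2 of the Limnodrilus group. HES-4-like loci were highest in commercial feed library 1, at 27.5, 8.71 and 4.23 FPKM for LOC117425475 and 20.9, 7.95 and 4.81 FPKM for LOC117432167, against 3.90 to 11.6 FPKM with Limnodrilus. Neither passed, and no difference between HES-5 and the other HES factors was tested.

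The BMP family gave no call among 11 tested of 35 loci. Of the 35, 2 are named for BMP 1, a protease rather than a ligand or receptor, and neither was tested. The tested ligands were all low. BMP 5, a ligand made by gut mesenchyme in mammals, was at 7.59, 3.65 and 1.67 FPKM against 3.04, 1.04 and 2.75 FPKM at bmp5, and without commercial feed library 1 its mean in that diet was 2.66 FPKM in place of 4.30 FPKM. The other 6 tested ligand loci, for BMP 2, 4, 5 and 7, had means between 0.897 and 2.63 FPKM in either diet. BMP receptor type-1A-like LOC117417723 was at 4.19, 7.30 and 4.25 FPKM against 4.83, 5.03 and 4.69 FPKM, and LOC117414699 at 6.74, 9.48 and 3.0 FPKM against 5.18, 4.06 and 4.14 FPKM. BMP receptor type-2-like LOC117426670, the partner that phosphorylates type-1 receptors, was at 4.91, 6.39 and 2.83 FPKM against 6.36, 5.77 and 6.31 FPKM. BMP receptor type-1B LOC117408649 was low and did not overlap, at 1.23, 1.84 and 1.16 FPKM against 0.625, 0.424 and 0.753 FPKM (adjusted p = 0.214).

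A fit without the filter on the mean covered 165 members and called 4 (2.42%, against 8.55% of all features), among them 2 BMP loci that the main test did not admit. BMP 16, a ligand described in fish, had 1, 3 and 2 reads with commercial feed and 31, 35 and 33 reads with Limnodrilus at bmp16, or 0.0786 ± 0.0410 against 0.794 ± 0.0925 FPKM (adjusted p = 0.0223). BMP receptor type-2-like LOC117407627 was at 0, 0.0432 and 0.287 FPKM against 1.41, 1.97 and 1.4 FPKM (adjusted p = 0.0258). Both were higher in every Limnodrilus library.

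The CDX homeobox factors had a higher median log2 fold change than the other 12 families, also under TPM, median-of-ratios and quantile scaling (1.5, 1.03 and 1.10), but not without commercial feed libraries 1 and 2 together, where it was 0.38 against 0.45 for beta-catenin. All 6 tested loci had log2 fold changes above 0, from 1.04 to 2.18 with a median of 1.31, yet 0 passed the threshold. CDX-2-like LOC117406327, a copy of the factor that in mammals keeps the intestinal epithelium intestinal, was at 2.82, 18.3 and 22.7 FPKM with commercial feed and 43.4, 46.6 and 76.3 FPKM with Limnodrilus. All Limnodrilus libraries were higher (14.6 ± 10.5 against 55.4 ± 18.2 FPKM, log2 fold change 2.18, SE 0.691, limma-trend adjusted p = 0.0664). CDX-2-like LOC117407155 was at 0.269, 2.91 and 4.27 FPKM against 6.23, 5.56 and 10.5 FPKM (log2 fold change 1.46, adjusted p = 0.107).

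CDX-1 had 4 tested loci with adjusted p of 0.139 to 0.285. The highest, LOC131699618, was at 7.00, 21.1 and 38.3 FPKM against 42.0, 21.2 and 71.2 FPKM, and LOC117431137 was at 4.20, 8.36 and 19.4 FPKM against 25.2, 14.8 and 42.4 FPKM. LOC117963427 was at 0.886, 4.48 and 9.89 FPKM against 10.2, 9.71 and 11.4 FPKM, and LOC117430179 at 0.893, 4.57 and 5.28 FPKM against 6.56, 6.32 and 9.31 FPKM. All 6 CDX loci were lowest in commercial feed library 1 and, within that diet, highest in library 3. Over all tested features, library 1 was the lowest of that diet for 48.5% and library 3 the highest for 49.2%. The CDX order is also that of the brush-border sum in that diet, 69.7, 337 and 3221 FPKM. With Limnodrilus the orders differed: the CDX sum was 134, 104 and 221 FPKM and the brush-border sum 1916, 9311 and 3645 FPKM. The part of the brush-border level in the CDX values was not tested. Without commercial feed library 3, 4 CDX loci passed: LOC117406327, LOC117407155, LOC117431137 and LOC117963427, with adjusted p of 0.0298, 0.0419, 0.0331 and 0.0320. In that fit 26.6% of all features were called. Without commercial feed libraries 1 and 2 together, the family's median log2 fold change was 0.38 and 0 CDX loci passed. LOC117406327 passed also with the replicate block (adjusted p = 0.0486).

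**Figure D3:**
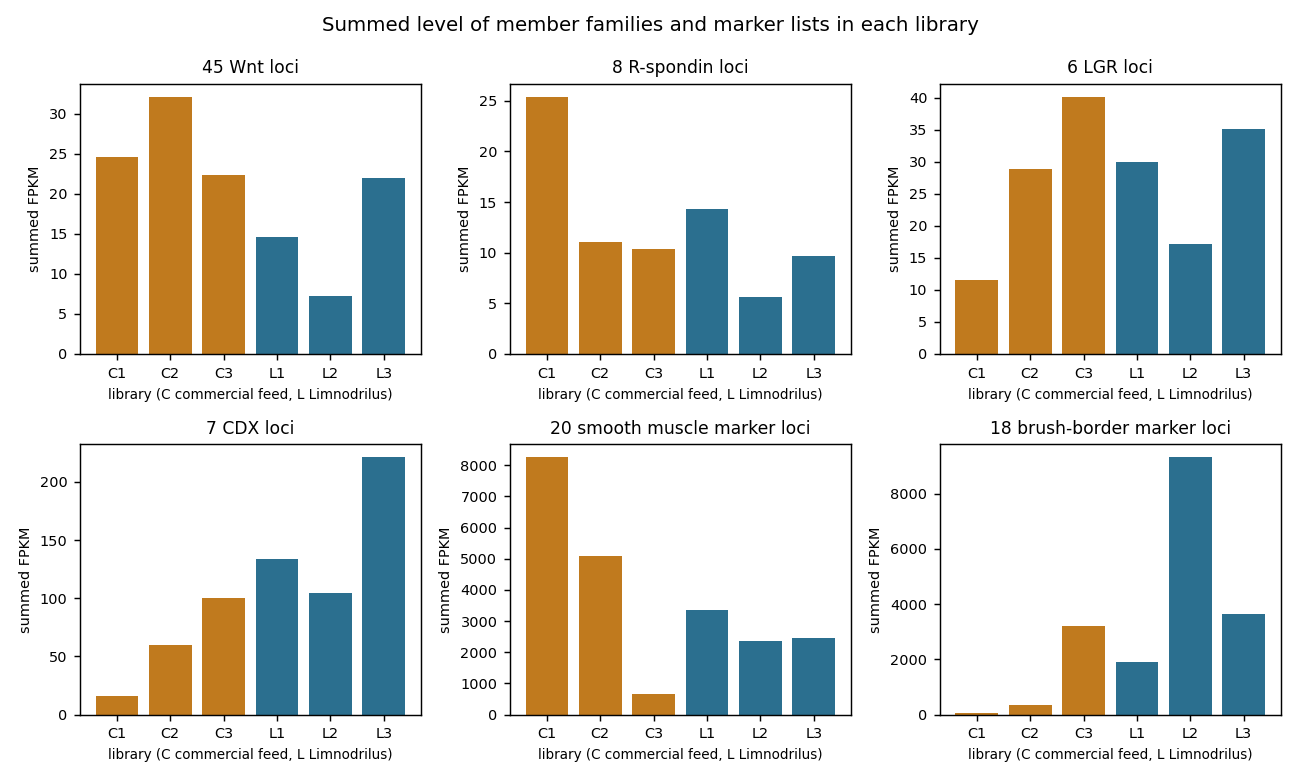
FPKM summed over the loci of 4 member families and 2 marker lists (bars from 0, y axes in FPKM) in each library (x axis, C commercial feed and L Limnodrilus with the replicate number). The CDX sum runs from 16.1 to 99.9 FPKM in commercial feed libraries 1 to 3 and from 104 to 221 FPKM with Limnodrilus, while the smooth muscle sum runs from 8259 down to 658 FPKM in the same commercial feed libraries.

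The spread of the members among libraries was itself wide. The median SD of log2(FPKM + 1) among the 3 libraries of a diet was 0.73 with commercial feed and 0.43 with Limnodrilus over the 79 tested members, against 0.55 and 0.32 over all tested features. Limnodrilus library 2 was the lowest of its diet for 61 members (77.2%), against 48.8% of all tested features. That library had the greatest depth and the highest brush-border sum, 9311 FPKM, of which 7431 FPKM was intestinal fatty acid-binding protein LOC117409347. In the commercial feed group, library 1 was lowest for 44.3% of tested members and 48.5% of all tested features, and library 3 for 32.9% and 23.2%. By family, library 1 was lowest for all 4 LGR and all 6 CDX loci. Library 3 was lowest for 5 of 7 loci of the Wnt protein and wntless family and 6 of 11 BMP loci. Other families were split. Of the frizzled loci 6 were lowest in library 1 and 7 in library 3, and of the Notch receptors 3 in library 1 and 3 in library 2.

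**Figure D4:**
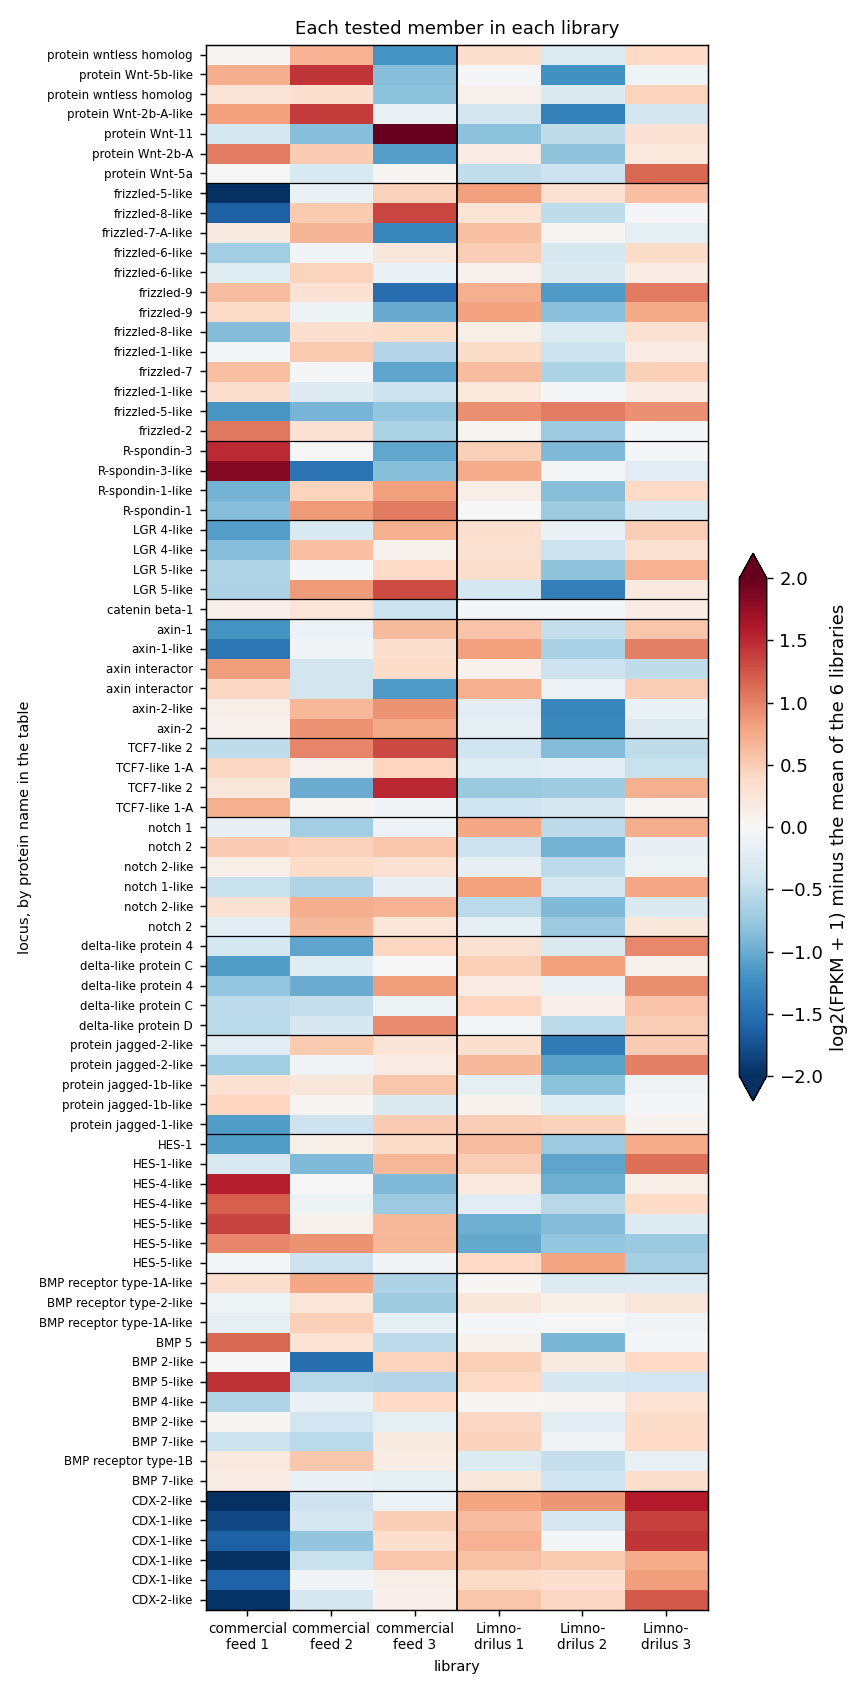
Log2(FPKM + 1) of each of the 79 tested members (rows, by family) in each of the 6 libraries (columns), minus the locus's mean over the libraries; red is above and blue below that mean, and the colour scale ends at -2 and 2. The CDX rows are blue in commercial feed library 1, and most rows are pale to blue in Limnodrilus library 2.

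Copies of the same protein were compared with each other, since 31 protein names had several tested loci, 67 loci in all. Log2 fold changes had the same sign at all tested copies for 24 names and different signs for 7. Names with the same sign at every tested copy included Notch 2 (4 loci, -1.15 to -0.45), CDX-1 (4 loci, 1.04 to 1.39), axin-2, delta-like protein C and Notch 1. In the fit without the filter, the untested Notch 1 loci LOC117434173 and LOC117964880 had the opposite sign (-0.28 and -0.54). Names with different signs included LGR5, jagged-2, R-spondin-3, frizzled-6 and HES-5.

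Other genes of these pathways were read from lists made by protein name, in which 34 of 188 tested loci passed, a share near the 17.7% of all features. In the Wnt lists, 5 of 44 tested loci rose and 3 fell, which is 18.2% called, and under both median-of-ratios and quantile scaling the split was 2 higher and 6 lower. LRP5-like LOC117435003, a Wnt co-receptor, rose from 6.83 ± 2.85 to 17.7 ± 1.72 FPKM (adjusted p = 0.0418), and ZNRF3-like LOC131699002, a ligase that removes frizzled receptors, fell from 5.01 ± 1.61 to 1.48 ± 0.382 FPKM (adjusted p = 0.0364). The LRP5-like call was lost with no filter, under median-of-ratios and quantile scaling and with the replicate block (adjusted p = 0.0552, 0.0762, 0.0519 and 0.0775), and the ZNRF3-like call with no filter, under TPM scaling and with the block (adjusted p = 0.0695, 0.0577 and 0.0582). The LRP5-like and ZNRF3-like calls were lost as well without commercial feed library 1 or 2 and without any single Limnodrilus library. Tankyrase-1 LOC117420842, which marks axin for degradation, rose from 2.01 ± 0.224 to 6.80 ± 0.840 FPKM (adjusted p = 0.0190). Beta-catenin-interacting protein 1 LOC131698830, which blocks binding of TCF factors, rose from 2.76 ± 0.104 to 8.06 ± 0.812 FPKM (adjusted p = 0.0222). The tankyrase-1 and beta-catenin-interacting protein 1 calls were lost with the replicate block, without commercial feed library 2 and without any single Limnodrilus library. None of the 9 tested loci for secreted Wnt inhibitors and Wnt secretion passed.

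Loci for Notch processing were called in 1 direction. Of 17 tested loci for gamma-secretase and the proteases that cut Notch, 9 rose and 0 fell, against 14.0% and 3.64% of all features, with a median log2 fold change of 1.18 against 0.24. Aph-1b LOC117428469, a gamma-secretase subunit, was at 0.975, 0.886 and 0.990 FPKM with commercial feed and 6.67, 9.20 and 8.42 FPKM with Limnodrilus (log2 fold change 2.21, SE 0.281, adjusted p = 0.00788). PEN-2 LOC117964818, another subunit, was at 5.66, 1.35 and 3.13 FPKM against 30.3, 38.3 and 34.4 FPKM (log2 fold change 3.13, SE 0.426, adjusted p = 0.00864). Both subunits passed under every alternative in which they were tested, although the commercial feed mean of PEN-2 was 2.24 FPKM without library 1 in place of 3.38 FPKM. Gamma-secretase also cuts many proteins other than Notch. The number of calls in this list was 5 without commercial feed library 2, 3 without Limnodrilus library 1, 2 or 3, and 5 without commercial feed libraries 1 and 2 together. Presenilin-1 LOC117433704, its catalytic subunit, was at 23.7 ± 8.17 and 29.6 ± 4.90 FPKM, without passing.

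Of 21 tested Notch modifiers 1 rose, O-glucosyltransferase 1-like LOC117406369, which glycosylates Notch. Of 7 tested loci for the Notch nuclear complex and HEY targets 1 rose, a suppressor of hairless homolog, LOC117420720, the DNA-binding partner of Notch (0.676 ± 0.351 to 3.84 ± 0.477 FPKM, adjusted p = 0.0171). The O-glucosyltransferase 1-like call was lost in 5 of 16 alternatives, and the suppressor of hairless call in 3 of 16. In the BMP lists 7 of 49 tested loci rose and 3 fell, which is 20.4% called. The split was 4 higher and 5 lower under median-of-ratios scaling and 2 and 4 under quantile scaling. Among the calls, gremlin-2-like LOC117402186, a BMP antagonist, rose from 0.401 ± 0.566 to 3.09 ± 1.09 FPKM (adjusted p = 0.0343), and activin receptor type-2A-like LOC117410738 rose from 1.52 ± 0.433 to 8.74 ± 3.53 FPKM (adjusted p = 0.0152). The gremlin-2-like commercial feed mean was 0.0774 FPKM without library 1, and its call was lost with a pseudocount of 0.1, with no filter, under median-of-ratios and quantile scaling and with limma-voom (adjusted p = 0.0553, 0.0610, 0.0653, 0.0702 and 0.0616). That call was lost as well without commercial feed library 2 and without any single Limnodrilus library. ID-1-like LOC117417627, a transcriptional target of BMP signalling, was the most abundant of its list at 229 ± 40.1 against 129 ± 37.9 FPKM, without passing (adjusted p = 0.157).

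Genes of epithelial renewal outside these pathways gave 5 calls among 50 tested loci, all higher with Limnodrilus. As a share this is below the 17.7% of all features. There were 18 calls (36%) without commercial feed library 3, 15 of them higher, against 26.6% of all features. Without commercial feed library 1 there were 5 calls (10%), 2 higher and 3 lower, against 14.5% of all features, so the direction of the calls was not stable. Krueppel-like factor 5 LOC131701680, a factor of proliferating crypt cells in mouse, rose from 11.4 ± 3.16 to 54.5 ± 16.4 FPKM (adjusted p = 0.0127). Krueppel-like factor 4 LOC117420823, a factor of differentiated and goblet cells, rose from 0.534 ± 0.534 to 7.19 ± 5.52 FPKM (adjusted p = 0.0254). Its Limnodrilus mean was 4.05 FPKM without library 2 and its commercial feed mean 0.242 FPKM without library 3, and the call was lost with no filter and with limma-voom (adjusted p = 0.0541 and 0.0599). The Krueppel-like factor 4 call was lost as well without commercial feed library 1 or 2 and without any single Limnodrilus library. Myc-B-like LOC117428910 and the replication licensing factor mcm3 LOC117402887 rose as well (adjusted p = 0.0377 and 0.0215). The Myc-B-like call was lost with no filter, under median-of-ratios and quantile scaling, with the replicate block and without commercial feed library 1 or 2 (adjusted p of 0.0550 to 0.0925). It was lost as well without any single Limnodrilus library. The mcm3 call was lost in 5 of 16 alternatives, and the Krueppel-like factor 5 call in 2 of 17. G1/S-specific cyclin-D1-like LOC117435119, a cell cycle gene and known Wnt target, was at 6.84, 17.2 and 14.7 FPKM against 4.05, 3.11 and 5.89 FPKM (not passing, adjusted p = 0.0644). With any single Limnodrilus library left out, 3 to 5 calls were made over all these lists in place of 34. Calls over all features fell likewise, from 4182 to between 638 and 739. Without commercial feed library 2 the lists gave 10 calls, and without commercial feed library 3 they gave 52. All features gave 1862 and 6295 calls in those fits. Of the 17 called loci chosen from these lists by the naming rule, 8 lost their call with the replicate block and 11 without commercial feed library 2. With Limnodrilus library 1, 2 or 3 left out, 15, 15 and 14 lost it.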

How the data were processed

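Poly(A) RNA from gut was sequenced in 3 libraries per diet. The authors deposited 1 table of FPKM with a length and annotation for each of 82023 features. Cutadapt 1.9 and the mouse build mm10 appear in the submitters' processing notes, although the table's RefSeq sequence names are not those of a mouse build. For the assembly, aligner, counter and strand setting, a name is not given in the sources used here. Coordinates are those deposited. Reads were recovered from steps of FPKM times length (tolerance 0.1 of a read), and 92.8% to 95.9% of values were whole. Counting error alone is covered by read numbers, since PCR copies are not independent molecules.

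Features whose 6-library mean reached 1 FPKM were tested as log2(FPKM + 1) with limma 3.58.1 (limma-trend, 2-sided) in R 4.3.3, with Benjamini-Hochberg adjustment over 23644 features. Fold changes are on the log2(FPKM + 1) scale, which understates those of low genes. The script was tested on simulated data. With 3 libraries a diet, the smallest p of an exact permutation test is 0.1.

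Members and lists were chosen with earlier results of these data known. Named members were the called loci, the 2 most abundant tested loci of each family and every member of families with 6 or fewer rows, 43 loci. Another 24 were named after their values were seen, as were wnt3a and single values of other members. From the other lists, up to 2 called loci of smallest p and the most abundant locus were chosen. Not every most abundant locus is described. Alternatives covered the pseudocount, filters, scaling (quantile, median-of-ratios, TPM), robust or trend-free limma, limma-voom on recovered reads, a replicate block, summing loci of 1 protein name, an adjusted p under 0.1 and leaving out libraries.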

Additional observations from a re-analysis of the deposited data

How the results depend on the processing

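Of the 3 called members, frizzled-5-like LOC117403465 passed under every alternative that tested it. A minimum mean of 5 FPKM left 33 members and called 0 of them (0 higher, 0 lower), against 22.1% of all features. Summing loci of 1 protein name called 1 member protein (0 higher, 1 lower), which is 2.27% against 15.1% of all protein names. An adjusted p under 0.1 called 8 members (2 higher, 6 lower), which is 10.1% against 27.8% of all features. Median-of-ratios and quantile scaling called 8 each (1 higher, 7 lower), or 10.1% against 15.6% and 16.7% of all features. Calls higher and lower were 3 and 1 with no filter, 1 and 1 with a pseudocount of 0.1 or with TPM scaling, and 1 to 5 and 0 to 3 with 1 library left out (1 to 7 in all). The labels do not say if same-numbered libraries were paired. Deviations of same-numbered libraries from their diet means correlated at 0.187, -0.069 and 0.075, against -0.251 to 0.133 for differently numbered ones. These few values cannot settle whether the libraries were paired. With the replicate block 2 members were called higher and 1 lower, all features called fell to 2607, and the calls in the other lists to 17. Over all features 4182 were called, against 2625 at a minimum mean of 5 FPKM, 2323 when summed by name, 6578 at an adjusted p under 0.1 and 638 to 6295 with 1 library left out. Calls in the other lists numbered 34, against 16 at a minimum mean of 5 FPKM and 3 to 52 with 1 library left out. In the Notch processing list they numbered 9, against 5 at that minimum, 5 without commercial feed libraries 1 and 2 together and 3 to 11 with 1 library left out.

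Diets that did not overlap were found for 6 members higher and 11 lower, against 17 higher with no filter, 2 and 2 at a minimum mean of 5 FPKM, 7 lower when summed by name, 25 and 26 without commercial feed libraries 1 and 2 together, and 6 to 22 and 11 to 18 with 1 library left out. Fewer libraries make separation easier. The share over all features is not given here for these alternatives, so the counts are not a result about the members. Family medians that moved by more than the spread between libraries were, under median-of-ratios and quantile scaling, beta-catenin (-0.29 and -0.23) and, under quantile scaling, jagged (-0.45) and BMP (-0.27). At a minimum mean of 5 FPKM axins gave 0.59 and TCF7-like factors -1.19, from fewer loci. Summed by name, Notch receptors gave -0.16. Without commercial feed libraries 1 and 2 together, beta-catenin gave 0.45, axins -0.53, TCF7-like factors -1.24, delta-like ligands -0.11 and CDX 0.38. With 1 library left out jagged ranged from -0.30 to 0.22 and R-spondins from -0.47 to 0.12. BMP loci of at least 1 FPKM summed to 28.7 FPKM with Limnodrilus, against 36.5 FPKM for all. The cause of these moves was not tested.

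For 86 named loci, 1220 of 1422 alternative values kept direction and side of the threshold, 110 lost a call, 26 gained one and 66 changed sign, at 32 loci, 0 of them past the threshold. Without commercial feed libraries 1 and 2 together, signs turned for BMP receptor type-1A-like LOC117414699 (0.44), bmp5 (0.23), delta-like 4 LOC117397504 (-0.11), frizzled-2 LOC117434598 (0.40), HES-1 LOC117416949 (-0.16) and LOC131697990 (-0.49), HES-4-like LOC117425475 (0.66) and LOC117432167 (0.59), LGR LOC117419431 (-0.33), LOC117432064 (-0.015) and LOC117434997 (-0.49), R-spondin-3 LOC117402498 (0.90), Wnt-5b-like LOC117419878 (0.42), Wnt-2b-A LOC117428861 (0.97), axin-1 LOC117418194 (-0.41), presenilin-1 LOC117433704 (-0.056), activin receptor type-1-like LOC117426847 (0.40), olfactomedin-4-like LOC117406842 (-0.53) and GATA-6-like LOC117435533 (-0.74). Under median-of-ratios scaling they turned for frizzled-7-A-like LOC117401055 (-0.021), LOC117419431 (-0.11), LOC117432064 (-0.18), wntless LOC117416650 (-0.038), beta-catenin LOC117400133 (-0.29) and HEY2-like LOC117402629 (-0.23). Under quantile scaling they turned for LOC117419431 (-0.084), LOC117432064 (-0.10), R-spondin-3-like LOC117410496 (-0.064), LOC117400133 (-0.23) and LOC117402629 (-0.23).

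With 1 library left out, values of loci that changed sign ranged from -0.28 to 0.71 for LOC117401055, -0.034 to 0.89 for LOC117416949, -1.01 to 0.22 for LOC117425475, -0.68 to 0.28 for LOC117432167, -0.11 to 0.97 for LOC131697990, -0.16 to 0.60 for LOC117419431, -0.28 to 0.44 for LOC117432064, -0.89 to 0.38 for LOC117402498, -0.33 to 1.33 for LOC117410496, -0.22 to 0.72 for LOC117416650, -0.90 to 0.16 for LOC117428861, -0.035 to 0.87 for LOC117418194, -0.15 to 0.19 for LOC117400133 and -0.15 to 0.34 for LOC117402629. They ranged from -1.02 to 0.47 for frizzled-8-like LOC117399763, -0.0085 to 1.03 for jagged-2-like LOC117422415, -0.73 to 0.22 for LOC131698692, -0.74 to 0.16 for R-spondin-1-like LOC131699709, -1.11 to 0.14 for TCF7-like 2 LOC117413262, -1.28 to 0.26 for Wnt-11 LOC117972819, -0.028 to 2.36 for secreted frizzled-related protein 1-like LOC131706799 and -0.51 to 0.21 for numb LOC117421262. The lists' alternatives were chosen after seeing the data. Depth limits low members: at 1 kb, 3 reads are 0.153 to 0.302 FPKM.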
